A study of Mus musculus with 2 samples.

Results

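The genes of oxidative phosphorylation were described in astrocytes cultured from the dentate gyrus (DG) of wild type (WT) and β-arrestin1 knockout (β-arr1 KO) mice. They were chosen by symbol: every symbol that begins with Nduf, Uqcr or Atp5, the subunits Sdha to Sdhd, Cyc1, Cycs, and every symbol that begins with Cox4 to Cox8. This gave 89 of the 16302 gene symbols listed in the WT and KO tables, 88 of them listed for WT and all 89 for KO. The mice of both genotypes were of the C57BL/6 strain, the labels give no age, and by the study's methods the cells came from adult DG and were grown in serum-containing medium. The KO mice are labelled β-arr1-/-, with no cell type to which the loss was limited, and no treatment is given for either genotype. Each genotype was represented by 1 library, which the submitters describe as pooled, so no test of genotype was possible and no p-value is given. Levels are in FPKM, the fragments of a transcript scaled to its length and to the library size, which is a level per length. The ratio is the KO level over the WT level, and 3/2 and 2/3 are the limits that the study used to call a change.

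The respiratory chain passes electrons from NADH (complex I) or succinate (complex II) through ubiquinone, complex III and cytochrome c to oxygen at complex IV. Complexes I, III and IV pump protons out of the mitochondrial matrix, and complex V, the ATP synthase, uses their return to make ATP. Most subunits are encoded in the nucleus, and a set of core subunits of complexes I, III, IV and V is encoded by mitochondrial DNA. Astrocytes are best known for glycolysis, but they also hold a working respiratory chain.

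The 89 genes comprised 41 of complex I, of which 6 encode assembly factors and not subunits, 4 of complex II, 9 of complex III, 17 of complex IV and 16 of complex V. The remaining members were Cycs, which encodes cytochrome c, and Atp5sl, which carries the name of a synthase subunit but is not one. Ndufa4, first described in complex I, was counted in complex IV, where it is now placed (269 FPKM in WT against 271 in KO). None of 26 names searched for the subunits encoded by mitochondrial DNA was in the tables, and those subunits were not analysed here. The nuclear subunit Ndufs5 had no row under its own symbol. The row at its annotated place (mm9 chr4:123389953-123395445) was named BC002163 in both tables, with 32.4 FPKM in WT against 30.6 in KO. BC002163 is described in the tables as a pseudogene of that subunit, and another row of the same name, elsewhere in the genome, had 72.4 FPKM in WT against 80.5 in KO. The Ndufs5 row was left out of the counts because its symbol is not one the rule takes.

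The estimated depth was 9380000 fragments in WT and 9520000 in KO. The Arrb1 transcript, which encodes β-arr1, had 7.62 FPKM in WT against 2.72 in KO, a ratio of 0.358. The counting interval of that ratio was 0.30 to 0.425. Here and below such an interval is a 95% one made from estimated fragments and placed around the FPKM ratio. It covers counting error only and not the spread between mice or cultures, or error in the assumed lengths. All 10 astrocyte markers were present in both libraries, with Gfap at 189 FPKM in WT against 192 in KO. Transcripts of other cell types were present too. For the marker counts below, of all genes that reached 1 FPKM in WT or KO, 9.56% were above 3/2 and 8.28% below 2/3. The 6 microglial markers summed to 547 FPKM in WT against 429 in KO, with none past a limit. Tyrobp was the highest of them, at 317 FPKM in WT against 219 in KO. The 5 listed markers of smooth muscle and pericytes summed to 5705 FPKM in WT against 5357 in KO. Of these, Rgs5 alone was past a limit (5.83 FPKM in WT against 3.58 in KO). The 5 fibroblast markers summed to 608 FPKM in WT against 316 in KO, with all 4 that reached 1 FPKM below 2/3. Of the 10 astrocyte markers, 4 were above 3/2 and none was below 2/3. Glul (83.3 FPKM in WT against 61.8 in KO) and Gja1 (34.0 and 29.4 FPKM) were lower in KO. The neuronal markers summed to 81.7 FPKM in WT against 104 in KO, nearly all of it Tubb3 and Stmn2, while Rbfox3, Snap25 and Syt1 were below 1 FPKM. The endothelial markers summed to 40.8 FPKM in WT against 28.6 in KO, with Cdh5 below 2/3 and Pecam1 above 3/2. The oligodendrocyte lineage markers summed to 66.9 FPKM in WT against 82.1 in KO, with Pdgfra above 3/2. Their part in the levels below was not tested. In a bulk library, fewer cells of a type and less RNA per cell cannot be told apart.

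As a group, the oxidative phosphorylation genes differed little between WT and KO. Their levels summed to 9479 FPKM in WT against 10364 in KO, which was 2.53% and 2.78% of all FPKM in the 2 libraries. In these sums Sdhd, not listed for WT, entered with 0 FPKM in WT and 71.4 in KO. Cox7c entered with 43.3 FPKM in WT against 194 in KO. The median log2 ratio over the 88 genes listed for both was 0.12, against 0.02 over all genes analysed, and the ratio was above 1 for 61 of the 88 (69.3%), against 53.1% of all genes. The analysed genes were the 12646 whose level reached 1 FPKM in WT, in KO or in both, and all 89 members were among them. The interquartile range of the log2 ratios ran from -0.02 to 0.28 in the members and from -0.16 to 0.21 in all genes.

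Among the 89 genes, 9 were past a limit. Of all genes analysed, 17.8% were past one, with genes listed for WT or KO only counted as past a limit. At the same limits the study reported a smaller share of changed genes. There were 8 members above 3/2 (9.56% of all genes) and 1 below 2/3 (8.28% of all genes). Of the 3718 genes whose mean level was 20 FPKM or higher, 8.74% were past a limit, and of the 74 members at that level 6 were. The counting interval of the ratio left out 1 for 45 of the 88 members, with KO higher for 37 and lower for 8. Over the 11639 analysed genes for which an interval could be made, it did so for 39.8%, with KO higher for 21.9% and lower for 17.9%. At a mean of 20 FPKM or higher, where more fragments narrow the intervals, it left out 1 for 42 of 73 members, with KO higher for 35 and lower for 7, against 51.6% of all such genes, with KO higher for 27.8% and lower for 23.8%. The members' count was 32 when fragments were estimated from the shortest annotated transcript, with no interval for Ndufb8. The shares over all genes were made with the longest transcript only. The interval lay wholly past a limit for 3 members, Cox7c, Ndufv2 and Ndufa11, and for 5.34% of all genes with an interval.

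**Figure D1:**
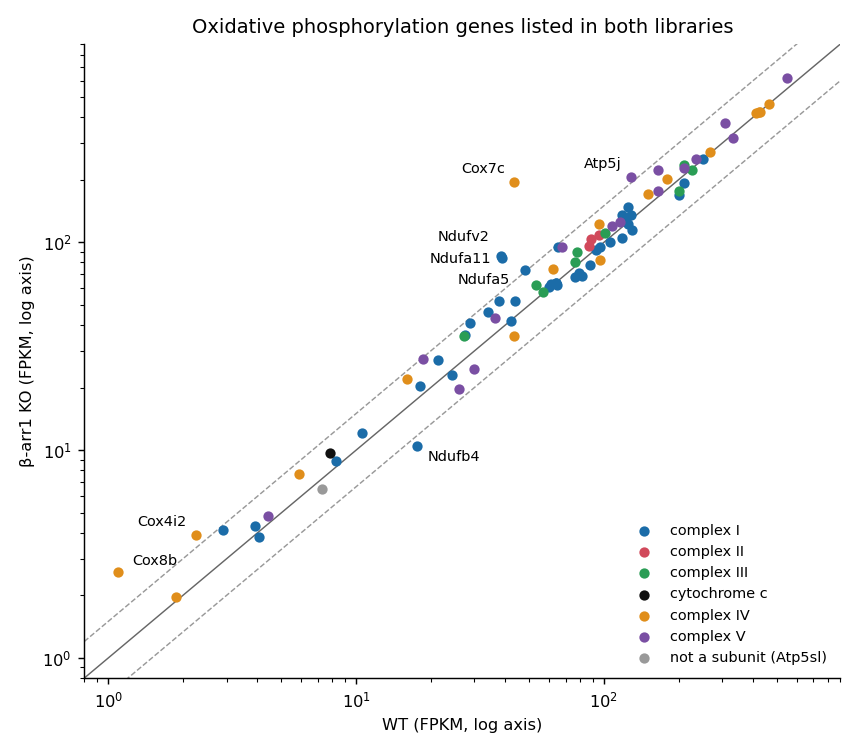
Level of each oxidative phosphorylation gene listed in both libraries, in FPKM, with WT on the horizontal and β-arr1 KO on the vertical axis (both log axes). Each point is 1 gene coloured by complex, the solid line marks equal levels, the dashed lines mark ratios of 3/2 and 2/3, and the 8 genes listed for both and past a limit are named. Most points lie between the dashed lines, and Cox7c, at 43.3 FPKM in WT against 194 in KO, lies farthest from the solid line.

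Complex I oxidises NADH. Its 41 genes had a median log2 ratio of 0.02, and the ratio was above 1 for 22 of them, against 53.1% of all genes. Their summed level was 2976 FPKM in WT against 3113 in KO. The 7 core subunits, which carry the flavin and the iron-sulphur clusters or form the quinone site, had a median log2 ratio of 0.18. The 28 accessory subunits had one of -0.01, and the 6 assembly factors one of 0.12.

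The highest levels in complex I belonged to small accessory subunits. Ndufa3 had 250 FPKM in WT against 252 in KO. Ndufa2 had 211 FPKM in WT against 193 in KO, and Ndufa7 had 201 FPKM in WT against 169 in KO. None of these was past a limit. The assembly factors lay far lower, between 2.90 FPKM (Ndufaf5 in WT) and 24.3 FPKM (Ndufaf2 in WT). Ndufaf5, which hydroxylates a core subunit during assembly, had the lowest mean level of the complex and 4.12 FPKM in KO, a ratio of 1.42.

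Ndufv2 (mm9 chr17:66428135-66450831), a core subunit that holds an iron-sulphur cluster beside the NADH site, had 38.3 FPKM in WT against 86.3 in KO. Its ratio was 2.25, with a counting interval of 2.03 to 2.51. The other core subunits were nearer to 1: Ndufs1, the largest of them, had 27.5 FPKM in WT against 35.7 in KO. Ndufv1, the partner of Ndufv2 that binds NADH and flavin, had 43.9 FPKM in WT against 52.4 in KO, a ratio of 1.19. No near-identical copy of the Ndufv2 coding sequence was found elsewhere in the genome. The row ended at base 66450831 in WT and at base 66450891 in KO.

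Ndufa11 (mm9 chr17:56856802-56863671 in WT), an accessory subunit of the membrane arm, had 38.9 FPKM in WT against 84.0 in KO, a ratio of 2.16 with an interval of 1.996 to 2.34. Its row overlapped that of Vmac by 321 bases in WT, and did not overlap it in KO, where the row began at base 56857185. Vmac had 9.01 FPKM in WT against 6.99 in KO. With both rows summed the ratio was 1.90, which was still above 3/2. Ndufa5 (mm9 chr6:24468666-24477687), an accessory subunit of the peripheral arm, had 48.0 FPKM in WT against 73.7 in KO. Its ratio of 1.54 had an interval of 1.33 to 1.77 that spans the limit.

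Ndufb4 (mm9 chr16:37647688-37654454), an accessory subunit of the membrane arm, was the only member below 2/3. It had 17.6 FPKM in WT against 10.5 in KO, a ratio of 0.594 with an interval of 0.445 to 0.789. About 129 and 83 fragments stand behind those levels. The coding sequence of Ndufb4 has 2 copies in the genome that are identical to it.

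Just inside the upper limit were Ndufb11 with a ratio of 1.44 and Ndufa12 with 1.43, both accessory subunits. Ndufb11 had 65.5 FPKM in WT against 94.5 in KO, and its row overlapped that of Rbm10 by 62 bases in WT and by 605 bases in KO. With Rbm10 added, the ratio was 1.41. Ndufb9 (128 FPKM in WT against 135 in KO) shared its place with Tatdn1 in both libraries, and the ratio of their sum was 1.02.

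Complex II, succinate dehydrogenase, is also an enzyme of the citrate cycle, and all of its subunits are nuclear. Sdha, the flavoprotein, had 89.0 FPKM in WT against 104 in KO. Sdhb, the iron-sulphur subunit, had 86.7 FPKM in WT against 96.1 in KO. The membrane anchor Sdhc had 95.6 FPKM in WT against 109 in KO. These 3 subunits stayed within a narrow band, with ratios from 1.11 to 1.17.

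The other membrane anchor, Sdhd, was not listed for WT and had 71.4 FPKM in KO (mm9 chr9:50404445-50411954), so it counted as above 3/2. In WT the same stretch lay inside a row named AU019823, which ran from base 50404445 to base 50425569 and had 73.7 FPKM. In KO the AU019823 row began beyond Sdhd and had 4.93 FPKM. The sum of the Sdhd and AU019823 rows was 73.7 FPKM in WT against 76.3 in KO, a ratio of 1.04. Timm8b, a mitochondrial import gene between those genes, had 83.9 FPKM in WT against 87.5 in KO. The absence of Sdhd from the WT table thus went with a WT row that joined Sdhd to its neighbour, and the level of the joined region was close in both libraries.

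**Figure D2:**
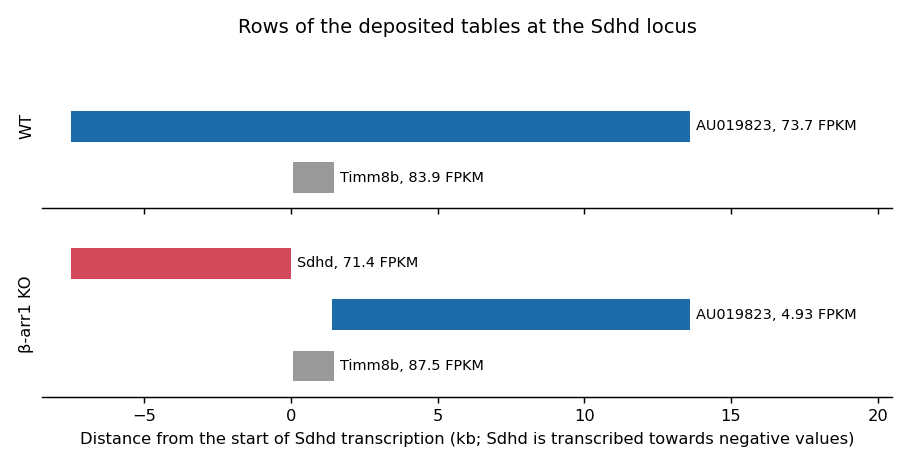
Rows of the deposited tables at the Sdhd locus in WT (top) and β-arr1 KO (bottom), drawn to scale against the distance in kb from the start of Sdhd transcription. Each bar is 1 row with its level in FPKM; in WT a single AU019823 row at 73.7 FPKM covers the stretch that holds the Sdhd (71.4 FPKM) and AU019823 (4.93 FPKM) rows in KO.

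Complex III passes electrons from ubiquinol to cytochrome c. None of its 9 genes was past a limit, and their sum was 1033 FPKM in WT against 1071 in KO. The catalytic subunits Cyc1 (cytochrome c1) and Uqcrfs1 (the Rieske iron-sulphur protein) had ratios of 1.15 and 1.17. Cyc1 had 78.0 FPKM in WT against 90.1 in KO. Uqcrfs1 had 53.2 FPKM in WT against 62.1 in KO. Both counting intervals left out 1, from 1.05 to 1.27 for Cyc1 and from 1.04 to 1.30 for Uqcrfs1.

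The highest levels of complex III belonged to 3 of its 5 small subunits. Uqcrq had 228 FPKM in WT against 223 in KO, Uqcrh had 211 FPKM in WT against 234 in KO, and Uqcr10 had 202 FPKM in WT against 177 in KO. Uqcrb, the lowest of the complex, had 27.2 FPKM in WT against 35.4 in KO. It was also the gene of the complex with the most copies in the genome, 5 at 90% identity or more. Cycs, the mobile carrier between complexes III and IV, had only 7.86 FPKM in WT against 9.68 in KO (ratio 1.23, interval 1.03 to 1.48), and its coding sequence has 10 such copies.

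Complex IV, cytochrome c oxidase, reduces oxygen to water. The median log2 ratio of its 17 genes was 0.17, and the ratio was above 1 for 15 of them, against 53.1% of all genes. Among these 15, Cox4i1, Cox6b1, Cox8a and Ndufa4 had ratios from 1.002 to 1.006. Those lie below the median ratio of all genes analysed, 1.013. The highest levels were nearly equal in WT and KO. Cox4i1 had 463 FPKM in WT against 464 in KO. Cox8a had 424 FPKM in WT against 426 in KO, and Cox6b1 had 420 FPKM in WT against 422 in KO. The 7 subunits of the general isoforms, Ndufa4 among them, had ratios from 1.00 to 1.28.

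**Figure D3:**
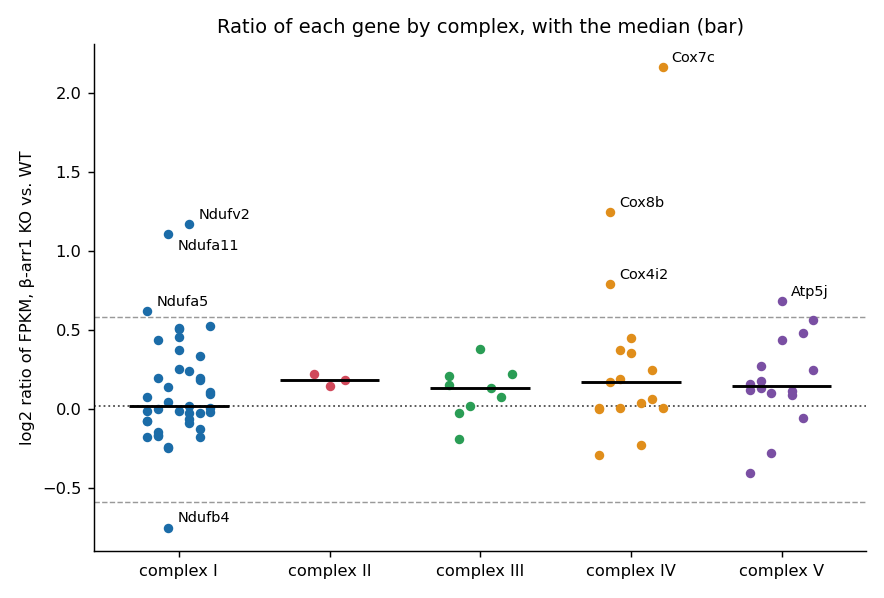
Log2 ratio of β-arr1 KO over WT for each gene (points) by complex, with the median of the complex as a black bar. The dashed lines are the limits of 3/2 and 2/3 and the dotted line is the median of all genes analysed (0.02); Cox7c has the highest log2 ratio (2.17) and Ndufb4 the lowest (-0.75).

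Several subunits of complex IV are encoded by more than 1 gene, and the isoforms differ between tissues. The general form predominated in the COX4, COX6A and COX8 sets, with Cox4i1, Cox6a1 and Cox8a each holding over 99% of the level of its set in both libraries (the lowest share was 99.2%, of Cox4i1 in KO). Cox6a1 had 411 FPKM in WT against 421 in KO. Cox4i2, a form known to be induced by low oxygen and abundant in lung, had 2.26 FPKM in WT against 3.91 in KO. Its ratio of 1.73 rests on about 12 and 22 fragments, with an interval of 0.819 to 3.83. Cox6b2, best known from testis, was the one alternative form at a sizeable level, with 43.5 FPKM in WT against 35.5 in KO (9.38% and 7.76% of its set).

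The forms known from heart and skeletal muscle were low. Cox6a2 had 1.88 FPKM in WT against 1.97 in KO, and its WT row overlapped the row of Itgad (0.0345 FPKM) by 69 bases. Cox7a1 had 5.91 FPKM in WT against 7.65 in KO. Cox8b had 1.09 FPKM in WT against 2.59 in KO, a ratio of 2.37 on about 2 and 5 fragments, with an interval of 0.388 to 24.9. The intervals of these 3 genes included 1. Other striated muscle genes differed more: of 12 markers searched, 8 reached 1 FPKM in at least one library. Of those 8, 7 were above 3/2, against 9.56% of all genes analysed, with Actc1 at 0.0860 FPKM in WT against 8.51 in KO. The 12 markers summed to 40.5 FPKM in WT against 136 in KO, each between 0 and 29.7 FPKM in WT and between 0 and 41.9 FPKM in KO. The defining factor Myod1 was not listed for WT and had 0.968 FPKM in KO. Their part in the levels of the muscle isoforms was not tested.

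In the COX7A set, Cox7a2 had 95.8 FPKM in WT against 123 in KO, a ratio of 1.28 with an interval of 1.14 to 1.44. Cox7a2l, which acts in joining complexes III and IV and is not a regular subunit, had 96.5 FPKM in WT against 82.4 in KO. Its ratio of 0.854 had an interval of 0.774 to 0.941. These are the pair of related genes in which KO was higher for one and lower for the other, with both intervals off 1. The place of Cox6b1 in WT also held, in the KO table only, a row of Upk1a at 0.273 FPKM, which does not change its ratio of 1.00.

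**Figure D4:**
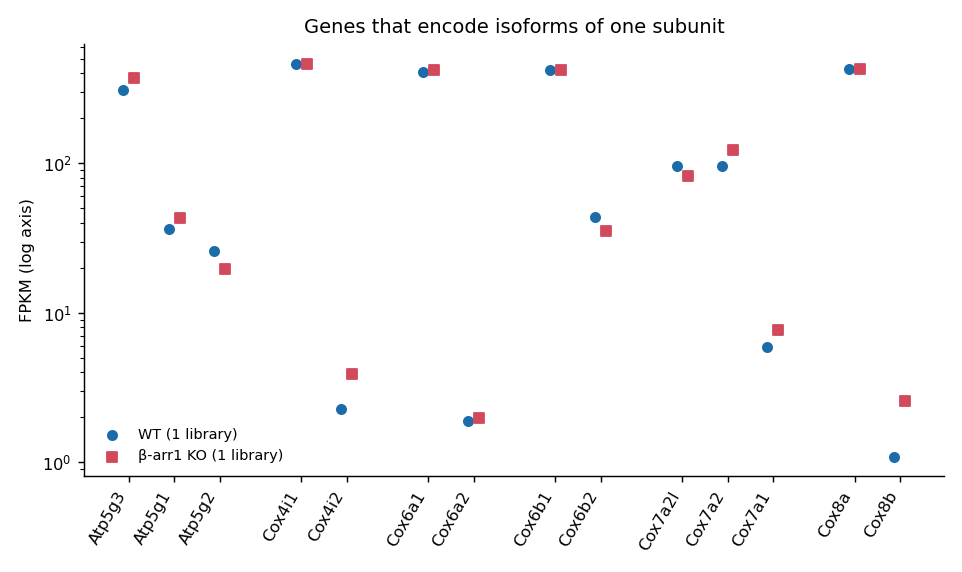
Levels in FPKM (log axis) of genes that encode isoforms of one subunit, and of the related Cox7a2l, in WT (circles) and β-arr1 KO (squares), 1 library each. In the COX4, COX6A and COX8 sets the general form lies more than 100 times above the other form in both libraries, while Atp5g3 is the highest of the c ring genes (308 FPKM in WT against 373 in KO).

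Of the complex IV subunits encoded by a single gene, Cox5a (150 FPKM in WT against 171 in KO), Cox5b (16.1 and 22.04 FPKM) and Cox6c (179 and 202 FPKM) had ratios from 1.13 to 1.37. The fourth, Cox7c, had the largest ratio of all members. Cox7c (mm9 chr13:86184403-86186405 in WT, minus strand) encodes a small subunit of the nuclear shell of the enzyme. It had 43.3 FPKM in WT against 194 in KO, a ratio of 4.49 with an interval of 3.87 to 5.23. About 211 fragments stand behind the WT level and 1053 behind the KO level.

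The Cox7c row is shown with its sequences because the same 192 coding bases occur elsewhere in the genome, so that a read cannot always be placed. The first sequence below is the Cox7c coding sequence, taken from the annotation of the mm9 assembly (NCBIM37). The others are the 3 full-length copies at 97% identity or more, each written in the direction of the coding sequence, with the bases that differ from it in capitals. The copy on chromosome 11 (mm9 chr11:75413265-75413456, minus strand) is identical to the coding sequence and is annotated as the pseudogene Gm12338 within Pitpna. The copy on chromosome 14 (mm9 chr14:39193733-39193924, plus strand) differs by C68A and A173G, and that on chromosome 17 (mm9 chr17:26038807-26038998, plus strand) by G30C and G107A, counted from 1 at the first base of the start codon, with the base of Cox7c first.
Cox7c coding sequence: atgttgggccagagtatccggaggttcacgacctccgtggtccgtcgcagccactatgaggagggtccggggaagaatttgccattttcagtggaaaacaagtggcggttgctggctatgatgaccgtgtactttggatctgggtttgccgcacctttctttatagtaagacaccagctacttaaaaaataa
Copy on chromosome 11: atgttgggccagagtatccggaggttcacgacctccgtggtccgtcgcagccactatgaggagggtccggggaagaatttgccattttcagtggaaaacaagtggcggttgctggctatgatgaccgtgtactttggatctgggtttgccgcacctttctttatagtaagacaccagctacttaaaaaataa
Copy on chromosome 14: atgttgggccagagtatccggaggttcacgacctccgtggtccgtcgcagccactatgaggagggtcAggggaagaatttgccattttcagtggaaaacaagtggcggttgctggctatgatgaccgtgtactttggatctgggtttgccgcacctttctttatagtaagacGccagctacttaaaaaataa
Copy on chromosome 17: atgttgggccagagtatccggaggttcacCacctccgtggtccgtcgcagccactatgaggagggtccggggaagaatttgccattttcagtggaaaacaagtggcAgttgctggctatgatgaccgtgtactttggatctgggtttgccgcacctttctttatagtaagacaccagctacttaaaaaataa

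Rows at the copies on chromosomes 11 and 17 had lower levels in KO. Pitpna, which encodes a phosphatidylinositol transfer protein and holds the identical copy, had 93.3 FPKM in WT against 59.6 in KO. Its ratio was 0.639 with an interval of 0.604 to 0.676, and about 3125 and 2055 fragments stand behind its levels. The row of the pseudogene Gm10012, on the chromosome 17 copy, had 15.6 FPKM in WT against 10.1 in KO. Rab40c at the same place had 12.005 FPKM in WT against 11.0 in KO. Nrg3, around the chromosome 14 copy, was low, with 0.193 FPKM in WT against 0.325 in KO. Cox7c was thus higher in KO while Pitpna and Gm10012 were lower, and whether reads were shared out differently among these places in the 2 libraries was not tested.

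Complex V makes ATP. The median log2 ratio of its 16 genes was 0.15, with the ratio above 1 for 13, against 53.1% of all genes. The sum of the 16 genes was 2497 FPKM in WT against 2859 in KO. Atp5b, the catalytic β subunit of the F1 head, was the most abundant member of all, with 548 FPKM in WT against 620 in KO. Its ratio of 1.13 had an interval of 1.10 to 1.17. Atp5a1, the α subunit of the head, had 210 FPKM in WT against 229 in KO, a ratio of 1.09. Of the central stalk, which turns inside the head, Atp5d had the highest ratio at 1.35 (165 FPKM in WT against 224 in KO).

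The c ring of the Fo part, which proton flow turns, is encoded by 3 genes whose mature proteins are the same. Atp5g3 had 308 FPKM in WT against 373 in KO, which was 83.2% and 85.6% of the set. Atp5g1 had 36.4 FPKM in WT against 43.1 in KO. Atp5g2 had 25.99 FPKM in WT against 19.6 in KO, and its ratio of 0.755 was the lowest of complex V and the next above the lower limit. Its interval, 0.568 to 1.00, reached 1. The coding sequence of Atp5g2 has 3 copies elsewhere in the genome at 97% identity or more, and that of Atp5g1 has 1. None was found for Atp5g3, even at 90%. Reads of Atp5g1 and Atp5g2 thus cannot always be placed, and the effect on their levels and shares was not tested. Atp5k, a small Fo subunit, had 332 FPKM in WT against 319 in KO, and Atp5s, a factor associated with the synthase, was the lowest of the complex with 4.42 FPKM in WT against 4.84 in KO.

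Atp5j (mm9 chr16:84828116-84835819), coupling factor 6 of the peripheral stalk, was the one gene of complex V past a limit. It had 128 FPKM in WT against 206 in KO, a ratio of 1.61 with an interval of 1.47 to 1.76. Its row overlapped that of Gabpa, a subunit of an ETS transcription factor, by 918 bases in WT and 796 bases in KO. Gabpa itself had 14.3 FPKM in WT against 14.4 in KO, and the ratio of the sum was 1.55. Atp5f1, the b subunit of the same stalk, had 67.7 FPKM in WT against 94.7 in KO, and overlapped Wdr77 (16.3 and 16.9 FPKM). Its ratio was 1.398, or 1.33 with Wdr77 added. Atp5l, a small membrane subunit, lay just inside the limit with 18.6 FPKM in WT against 27.5 in KO, a ratio of 1.48, and its coding sequence has 14 copies at 90% identity or more. Atp5sl had 7.29 FPKM in WT against 6.53 in KO.

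Copies of the kind found for Cox7c were frequent. Coding sequences of 15 members had a copy elsewhere in the genome over at least 80% of their length and at 97% identity or more. A further 17 had copies at 90 to 97% only, and 57 had none. The 15 genes with near-identical copies had a median level of 27.2 FPKM in WT against 27.5 in KO, against 88.5 and 93.1 FPKM for the other 74. The 17 genes with less similar copies had a median of 179.5 FPKM in WT, and the 57 genes without a copy one of 79.1 FPKM. The SD of the log2 ratios was 0.64 in the 15 genes, 0.39 in 14 of them without Cox7c, and 0.31 in the others. Of the 9 members past a limit, 2 had a near-identical copy (Cox7c and Ndufb4).

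**Figure D5:**
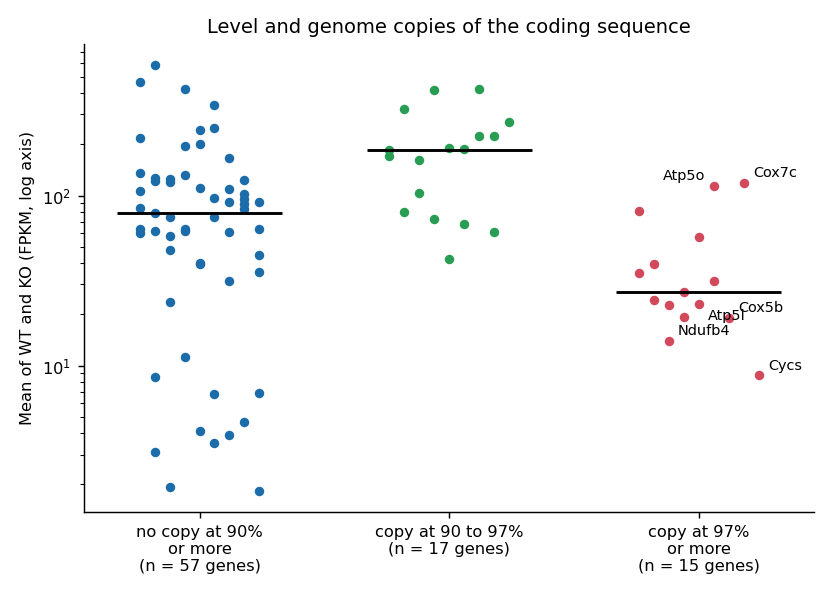
Mean level of WT and KO in FPKM (log axis) of the 89 genes, grouped by the most similar copy of their coding sequence elsewhere in the genome, with the median of each group as a black bar; Sdhd enters with 0 for WT. The 15 genes with a copy at 97% identity or more lie lowest in median, and Cycs, one of them, is below 10 FPKM.

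The rows also differed in extent between the tables. Of the 89 genes, 70 had the same bounds in both and 19 did not, and of the 9 past a limit 4 had other bounds (Cox7c, Ndufv2, Ndufa11 and Sdhd). Rows of 8 members overlapped a row of another symbol in one table or across the tables. Of these 8, 3 were above 3/2 (Ndufa11, Atp5j and Sdhd), against 9.56% of all genes analysed. The members are short, with a median longest annotated transcript of 963 bases against 3045 bases for 12037 analysed genes, and FPKM of short transcripts depends most on the length that the authors' software assumed.

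Promoters of the members were searched on both strands for motifs of factors known to act on respiratory genes. Promoters, here 250 bases before to 50 bases after a start site, were taken from RefSeq on GRCm38.p6, where 74 of the 89 genes were matched. The motif GCGCANGCG of NRF1, nuclear respiratory factor 1, was present for 22 of the 74 genes (29.7%), against 15.1% of 10016 analysed genes and 7.03% of all 27025 genes with a promoter. AAGATGGCG of YY1 was present for 8 (10.8%, against 3.48% of analysed genes). CCGGAAGT of the ETS factors was present for 5 (6.76%, against 8.75%), and TCAAGGTCA of the ERR receptors for 2 (2.70%, against 0.290%). A match is a description of letters and does not show that the factor binds there. The median log2 ratio was 0.11 (0.105) for the 22 genes with the NRF1 motif and 0.14 for the other 52. Past a limit were 4 of the 22 and 4 of the 52, against 17.8% of all genes analysed. Sdhd, which has no ratio because it was not listed for WT, is among the 22 and counted among their 4.

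At least 2 kinds of motif were found in the promoters of 5 members, and 1 of them is shown for each complex that has any, the one with the higher level in complex V. The motifs are in capitals, on either strand, and each sequence is on the minus strand of GRCm38.p6. Ndufs6 (chr13:73328433-73328732), with 42.3 FPKM in WT against 42.0 in KO, holds NRF1 and YY1 motifs. Sdhd (chr9:50603800-50604099) holds NRF1 and ERR motifs. Uqcr11 (chr10:80406772-80407071), with 57.0 FPKM in WT against 57.7 in KO, holds ETS and NRF1 motifs, and Atp5g3 (chr2:73911277-73911576) holds ERR and NRF1 motifs.
Ndufs6: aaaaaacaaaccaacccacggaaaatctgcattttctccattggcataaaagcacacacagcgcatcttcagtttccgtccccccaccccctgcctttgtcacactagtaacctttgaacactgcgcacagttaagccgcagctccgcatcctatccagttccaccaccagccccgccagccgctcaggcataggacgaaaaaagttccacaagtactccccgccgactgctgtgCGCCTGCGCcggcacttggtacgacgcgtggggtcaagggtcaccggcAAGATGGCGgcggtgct
Sdhd: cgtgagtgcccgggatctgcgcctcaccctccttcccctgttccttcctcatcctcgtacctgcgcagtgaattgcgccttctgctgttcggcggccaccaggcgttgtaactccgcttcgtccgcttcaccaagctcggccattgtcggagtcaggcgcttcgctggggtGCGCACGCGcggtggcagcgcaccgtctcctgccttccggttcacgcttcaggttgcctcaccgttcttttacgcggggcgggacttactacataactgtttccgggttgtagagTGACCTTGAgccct
Uqcr11: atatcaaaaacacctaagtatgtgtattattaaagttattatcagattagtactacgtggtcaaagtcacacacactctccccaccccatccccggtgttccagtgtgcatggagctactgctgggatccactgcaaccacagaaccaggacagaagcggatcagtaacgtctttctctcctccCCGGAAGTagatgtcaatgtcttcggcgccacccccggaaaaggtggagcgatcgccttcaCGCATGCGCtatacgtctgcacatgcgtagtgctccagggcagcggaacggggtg
Atp5g3: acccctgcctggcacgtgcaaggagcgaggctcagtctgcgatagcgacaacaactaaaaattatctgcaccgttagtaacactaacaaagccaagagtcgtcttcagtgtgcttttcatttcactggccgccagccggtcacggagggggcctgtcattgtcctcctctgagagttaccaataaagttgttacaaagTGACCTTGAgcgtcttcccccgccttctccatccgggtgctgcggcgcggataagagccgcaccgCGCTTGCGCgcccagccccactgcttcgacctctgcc

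Genes that act beside the chain were counted by fixed lists. All 13 enzymes of the citrate cycle were within the limits, with a median log2 ratio of 0.18 and a sum of 827 FPKM in WT against 917 in KO. Cs, citrate synthase, had 87.0 FPKM in WT against 104 in KO. The exception in direction with an interval off 1 was Ogdh, of the oxoglutarate dehydrogenase complex, with 46.7 FPKM in WT against 34.1 in KO (0.679 to 0.785). The citrate cycle thus lay close to the members in its median.

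Of 27 assembly factors outside the rule, 2 were above 3/2 and 4 below 2/3, against 9.56% and 8.28% of all genes analysed. Their median log2 ratio was -0.01. Nubpl, which delivers iron-sulphur clusters to complex I, had 5.25 FPKM in WT against 2.72 in KO. Cmc1, of complex IV assembly, had 16.4 FPKM in WT against 8.63 in KO, and Atpaf1, of F1 assembly, had 4.85 FPKM in WT against 3.02 in KO. Lyrm7, of complex III assembly, had 1.04 FPKM in WT against 1.62 in KO, with an interval that included 1. Ecsit was listed for WT only (11.4 FPKM) and Sco2 for KO only (17.7 FPKM), so neither has a ratio of its own. The Ecsit stretch lay inside the KO row of Cnn1. The Sco2 stretch overlapped the WT row of Ncaph2 only in part, and Ncaph2 had 24.7 FPKM in WT against 26.8 in KO.

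Of 15 regulators of mitochondrial genes, 2 were below 2/3 and 1 was above 3/2, against 8.28% and 9.56% of all genes analysed. Ppargc1a, the coactivator PGC-1α, had 1.30 FPKM in WT against 2.93 in KO, a ratio of 2.26 with an interval of 1.72 to 2.99. Nrf1 had 8.18 FPKM in WT against 8.06 in KO. Tfam, which packages mitochondrial DNA and acts in its transcription, had 5.93 FPKM in WT (5.925) and 5.55 FPKM in KO. Neither was past a limit. The 2 regulators below 2/3, Esrra (18.8 FPKM) and Tfb1m (5.10 FPKM), were listed for WT only. The KO row of Prdx5, at 367 FPKM, covered the whole Esrra stretch. The KO rows of Tiam2 and Cldn20 overlapped the Tfb1m stretch only in part.

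Of 8 carriers and related genes, 1 was above 3/2 and 1 below 2/3, against 9.56% and 8.28% of all genes analysed. Vdac3, an outer membrane channel, was above 3/2 with 23.3 FPKM in WT against 35.6 in KO. Vdac1, its most abundant relative, had 149 FPKM in WT and was not listed for KO. There the row of its neighbour 9530068E07Rik, at 308 FPKM, covered its place except for the first bases. That row began at base 52174617, and the WT row of Vdac1 at base 52174236. The neighbour had 160 FPKM in WT. The carriers that bring phosphate and exchange ADP for ATP were within the limits: Slc25a3 had 312 FPKM in WT against 369 in KO, and Slc25a4 had 440 FPKM in WT (440.5) and 418 FPKM in KO.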

How the data were processed

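Total RNA of cultured DG astrocytes was sequenced as paired reads of 100 bases, 1 library per genotype. The authors aligned reads to mm9 with TopHat 1.4.0 and deposited FPKM values per gene from Cufflinks; its version and annotation are not given in the sources used here. Rows were joined by symbol and starts were raised by 1 to be 1-based. Ratios used no pseudocount and genes were kept if WT or KO reached 1 FPKM. Depth was estimated from the steps of low FPKM values (71.5% of them in WT and 72% in KO lay within 5% of a step). Fragments were estimated from FPKM, depth and the longest annotated transcript, less a length allowance of 190 bases in WT and 140 in KO. Each interval is an exact Clopper-Pearson one, rescaled to lie around the FPKM ratio. Its direction thus follows FPKM, which can differ from that of the fragments. Uqcr10, with a ratio of 0.876, had about 461 fragments in WT against 494 in KO. Whether another allowance would change the interval counts was not tested. Coding sequences were searched with BLAST+ 2.17.0 in NCBIM37. Python 3.11.15 was used. The calls were also run on simulated data that held counting error only and set changes well past the limits. That run does not cover differences between cultures or libraries, in read placement or in row bounds. Members and lists were chosen with earlier results of these data known. Values were given for members past a limit, listed once, overlapping, in isoform sets, or among the 3 highest or the lowest of a complex, other values for context.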

Additional observations from a re-analysis of the deposited data

How the results depend on the processing

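With limits of 2 and 1/2, 5 members were past a limit, 5 of them above and 0 below. With only genes of the same bounds in both tables, 5 were past a limit and 4 above 3/2, and with overlapping genes left out 5 were above 3/2, since fewer genes were counted. Leaving out near-identical copies, chosen after seeing the data, left 0 genes below 2/3 and gave complex IV a median log2 ratio of 0.0656. The median log2 ratio of complex I, 0.02 as reported, was -0.0058 with only genes of the same bounds. With overlapping rows summed, the ratio of Ndufa11 was 1.90 and that of Sdhd 1.04, so that Sdhd was no longer past a limit, 8 members were past one and 7 above 3/2. Apart from Sdhd, the 35 named members with alternatives, Ndufa11 among them, kept their side of the limits in each of 217 alternative ratios. These used pseudocounts of 0.1 and 1 FPKM, 3 rescalings, and rows of a symbol or overlapping rows summed. Summing rows of a symbol changed none of the ratios. The rescaling factors on KO ran from 0.988 to 1.003, so rescaling could have moved only a ratio very near a limit across it. No paired analysis was possible because each genotype had 1 library and no test was made. With 1 library per genotype, no library could be left out, and differences between mice, cultures and library preparation cannot be told apart from genotype. Depth limits the low genes most: Cox8b rests on about 2 and 5 fragments.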
